A study of Homo sapiens with 6 samples.

Results

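The nuclear-encoded subunits of the mitochondrial respiratory chain, complexes I to V, were examined in PLC/PRF/5 cells after knockdown of the splicing factor SLU7. PLC/PRF/5 is an established line from a human hepatocellular carcinoma. The siSLU7 group comprised 3 arrays of cells transfected with siRNAs against SLU7, and the control group 3 arrays of cells transfected with the control siRNA siGL. All RNA was taken 48 h after transfection with Lipofectamine RNAiMAX and hybridised to the Affymetrix Human Exon 1.0 ST array. The descriptions number the transfections siGL1 to siGL3 and siSlu71 to siSlu73, which were read as replicate numbers, and the labels do not say whether they stand for different siRNAs or for separate cultures. The p-values cover only array-to-array variation here, which may be technical or may hold differences between siRNAs. Members were all genes whose single gene symbol, in its current or older form, begins with NDUFA, NDUFB, NDUFC, NDUFS, NDUFV, SDH, UQCR, COX4, COX5, COX6, COX7, COX8 or ATP5. This gave 93 of the 15949 genes with a single symbol. They were 34 subunits of complex I, 3 of complex II, 8 of complex III, 18 of complex IV and 17 of complex V (the ATP synthase, with its inhibitor ATP5IF1), together 80. The name rule also took in 11 assembly factors and 2 further genes, DMAC2L, known as coupling factor B of the ATP synthase, and EMC8, a subunit of the endoplasmic reticulum membrane complex.

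The respiratory chain sits in the inner mitochondrial membrane. Complex I takes electrons from NADH and complex II from succinate, complex III passes them from ubiquinol to cytochrome c, and complex IV hands them to oxygen. Complexes I, III and IV pump protons, and complex V, the ATP synthase, uses the resulting gradient to make ATP. Apart from complex II, which is wholly nuclear-encoded, each complex combines nuclear-encoded subunits with a few encoded by mitochondrial DNA. Assembly factors build the complexes without remaining part of them. Hepatocytes are rich in mitochondria and draw on this chain for gluconeogenesis and urea synthesis.

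Each array gave 1 log2 value for each of 18708 transcript clusters (all core probe sets of 1 locus), with array medians from 6.61 to 6.63. SLU7 itself was at 5.84, 5.58 and 6.21 log2 units in the siSLU7 arrays, against 7.89, 7.01 and 7.24 in the control arrays, with no overlap and a limma adjusted p of 0.0783. Of 8 hepatocyte and hepatoma markers, 5 lay above the upper quartile of every array, while albumin (ALB) averaged 3.07 log2 units with siSLU7 and 3.87 with control siRNA and was, like AFP, not above the lower quartile (4.86 to 4.98) on every array. Of the markers of other cell types, the blood markers PTPRC and CD14 and the fibroblast markers COL1A2 and DCN were not above it on every array either. The endothelial markers PECAM1 (6.82 with siSLU7 and 7.05 with control siRNA) and VWF (6.18 and 6.41) and the fibroblast marker COL1A1 (6.14 and 6.08) were above it on every array, none of them above the upper quartile. A pair of arrays, siSLU7 replicate 1 and control replicate 2, stood apart on the first principal component (36.6% of the variance), 1 from each group. The respiratory chain genes moved with that split: in that pair the median member was 0.31 log2 units below its level in the remaining 4, and 64 of 93 were lower, whereas the median of all genes was 0.10 higher. Results are therefore also given within the pair (siSLU7 replicate 1 minus control replicate 2, a difference of single arrays with no error) and within the other 4 arrays. What sets the pair apart was not tested.

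With siSLU7, 1 of the 93 respiratory chain genes fell and members with higher and with lower values stood side by side in most complexes. Of the 93 members, 57 had a positive and 36 a negative log2 difference (siSLU7 minus control), with a median of 0.12 against -0.003 over all genes. Without any 1 array this median ran from 0.0068 (without control replicate 2) to 0.24, and 58 of 93 members kept 1 sign in all 6 such fits. In the limma fit over all clusters (Benjamini-Hochberg adjusted p under 0.05), NDUFS7 fell, no member rose and 92 members did not pass. Over all clusters 0.433% passed, 0.134% higher and 0.299% lower. At an unadjusted p under 0.05, 11 members were higher and 4 lower, where 6.55% and 6.54% of all clusters were. The 3 siSLU7 arrays lay wholly above the 3 control arrays for 14 members and wholly below for 7, and overlapped for 72. Together these 21 are 22.6% of the members, against 18.9% of all clusters, so the share for both directions together was near the background. By direction, the 14 of 93 higher were a larger share than the 9.64% of all clusters. The 7 of 93 lower were a smaller share than the 9.21% of all clusters. This imbalance was not tested. In 77 of 93 members the range within 1 of the groups exceeded the difference between the group means, as it did for 87.7% of all genes. In whole-culture RNA, fewer cells expressing a gene and less of its RNA per cell cannot be told apart.

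**Figure D1:**
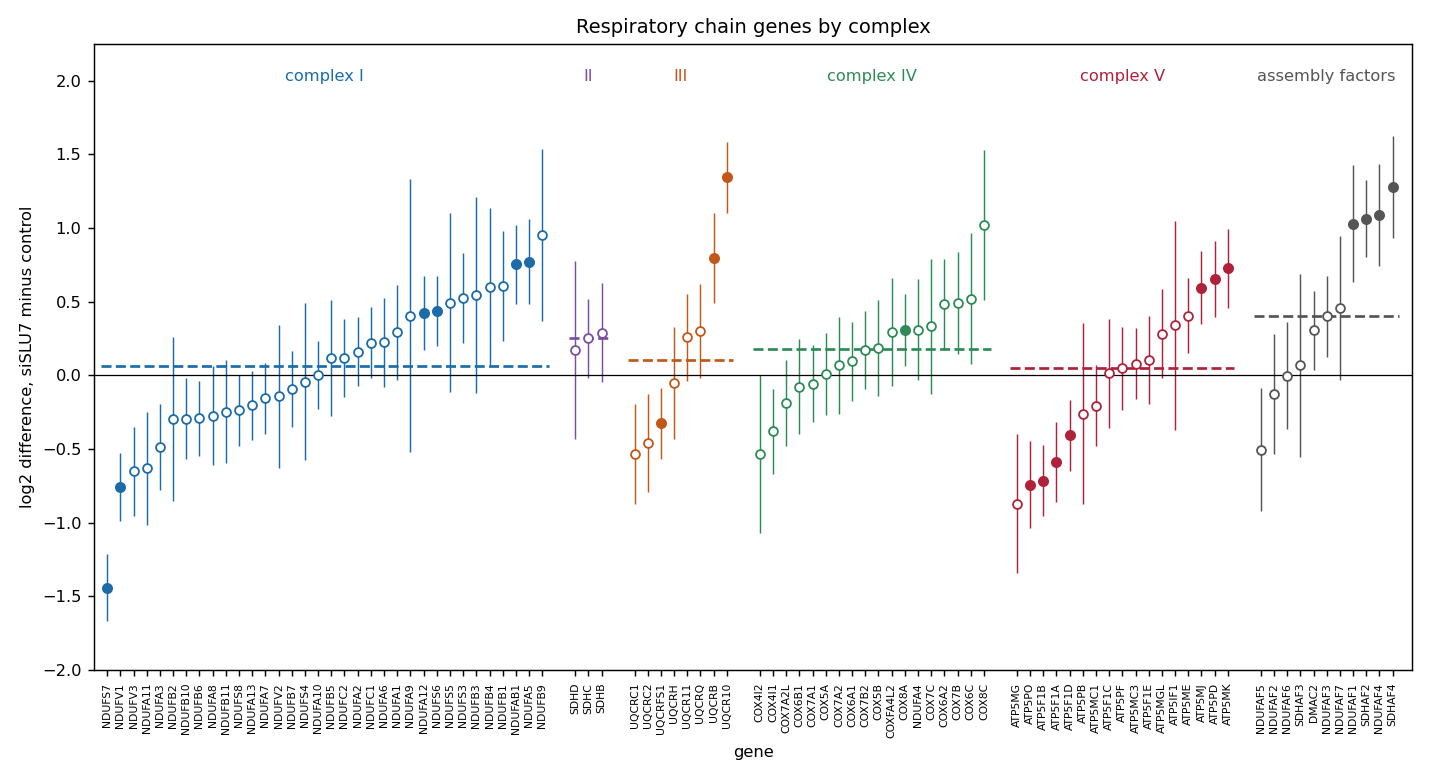
Log2 difference (siSLU7 minus control) of each member of complexes I to V and of the assembly factors, with its limma standard error (filled points, the 21 members whose siSLU7 and control arrays do not overlap; dashed lines, medians). NDUFS7 at -1.44 is the lowest point and UQCR10 at 1.35 the highest.

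Complex by complex, the medians for I, III, IV and V lay below the pooled within-group SD between arrays (0.21, 0.17, 0.27 and 0.17). The median for complex II was near it (0.25 against 0.26), and that for the assembly factors was above it (0.40 against 0.35). The median log2 difference was 0.06 for the 34 subunits of complex I (16 below 0), 0.25 for the 3 of complex II (none below 0), 0.10 for the 8 of complex III (4 below 0), 0.18 for the 18 of complex IV (5 below 0) and 0.05 for the 17 of complex V (7 below 0). It was 0.40 for the 11 assembly factors (3 below 0). Without any 1 array the median ran from -0.11 to 0.19 in complex I, where it changed sign, from 0.12 to 0.45 in complex II and from 0.05 to 0.33 in complex IV. In each complex and in the assembly factors, the lowest of these medians was the one without control replicate 2. For each gene the deviation from its mean over the 6 arrays was taken, and the median of these deviations described each complex in each array. For complex I this median was -0.24, 0.15 and 0.11 in siSLU7 replicates 1 to 3, against 0.21, -0.18 and 0.13 in control replicates 1 to 3. For complex IV it was -0.24, 0.11 and 0.21 with siSLU7, against 0.23, -0.36 and 0.01 with control siRNA. In both complexes the lowest array of each group was the one that stands apart, and the groups overlapped. For complex V the median was -0.08, 0.06 and 0.11 with siSLU7, against 0.06, -0.28 and 0.12 with control siRNA, again overlapping. For the assembly factors it was -0.005, 0.45 and 0.41 with siSLU7, against 0.13, -0.70 and -0.07 with control siRNA. Here siSLU7 replicate 1 lay below control replicate 1, so these groups overlapped as well.

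**Figure D2:**
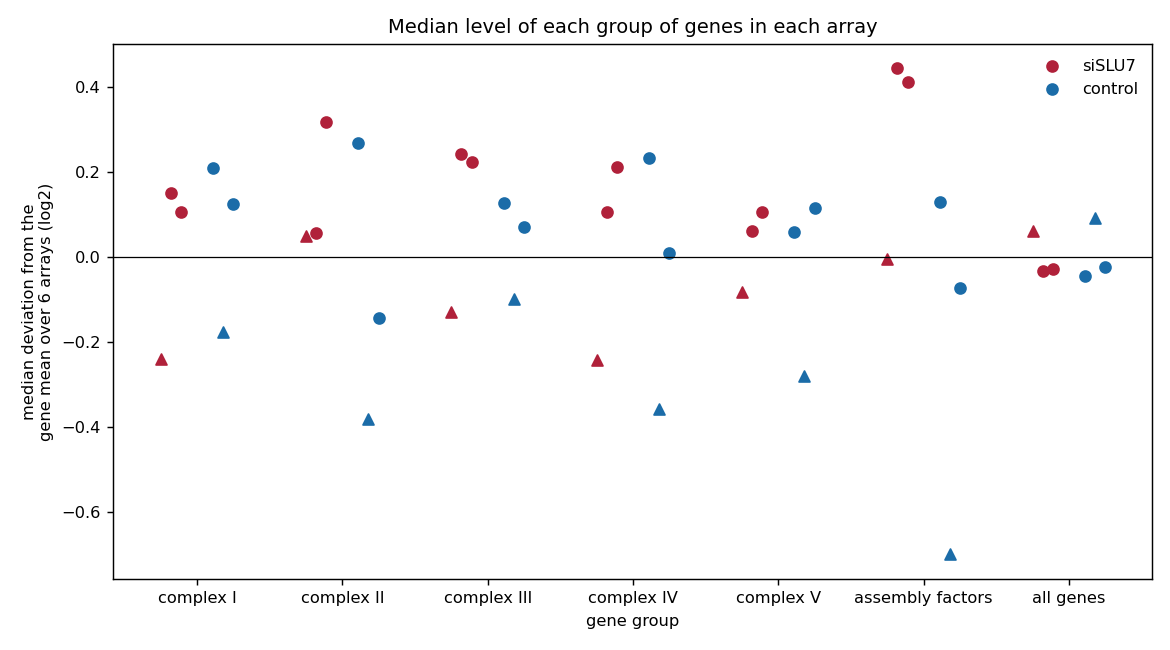
Median deviation from each gene's mean over the 6 arrays (log2 units) for each complex, for the assembly factors and for all genes, with 1 point per array, siSLU7 to the left of control (triangles, siSLU7 replicate 1 and control replicate 2). In every complex and in the assembly factors the lowest point is one of these triangles, for instance -0.70 for control replicate 2 in the assembly factors, while over all genes both triangles lie above the other 4 points.

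NDUFS7 was the member that passed the test. NDUFS7 is a core subunit of complex I that carries the last iron-sulfur cluster before ubiquinone. Its level was 9.51, 9.44 and 9.55 log2 units in the siSLU7 arrays, against 10.89, 11.01 and 10.92 in the control arrays. All siSLU7 arrays were low and all control arrays high, with a wide gap between them. NDUFS7 averaged 9.50 ± 0.05 log2 units with siSLU7 and 10.94 ± 0.06 with control siRNA (SD, n = 3 each). The difference of -1.44 ± 0.23 (SE) corresponds to 36.8% of control, 2.72-fold lower (95% interval 1.89 to 3.90), with a limma adjusted p of 0.0485. Among the 81 clusters called, NDUFS7 had the smallest absolute difference, the other 80 being larger. The difference was -1.50 within the pair that stands apart and -1.41 within the other 4 arrays. The call was lost without any 1 of the 6 arrays, when no cluster at all was called, with NDUFS7 at adjusted p from 0.0759 to 0.207 and a difference from -1.47 to -1.41.

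The other core subunits of complex I did not pass. NDUFV1, the flavoprotein subunit that accepts electrons from NADH, was at 11.03, 10.90 and 11.03 log2 units with siSLU7, against 11.82, 11.74 and 11.68 with control siRNA. These groups did not overlap, the difference was -0.76 ± 0.23 (SE) or 1.69-fold lower, and the adjusted p was 0.192. NDUFV2, the iron-sulfur partner of NDUFV1, was at 8.31, 9.71 and 9.64 with siSLU7, against 9.98, 8.52 and 9.57 with control siRNA. NDUFV2 overlapped, and its spread followed the arrays that stand apart. NDUFS8 and NDUFS3, which with NDUFS7 belong to the arm that leads to ubiquinone, had differences of -0.24 ± 0.24 and 0.53 ± 0.31 (SE), both overlapping. Over the 5 core subunits measured the median was -0.24, with 4 below 0, and over the 29 supernumerary subunits it was 0.12, with 12 below 0. The difference between these medians was not tested.

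Among the supernumerary subunits of complex I, which surround the catalytic core, 4 had higher values in every siSLU7 array than in any control array and none passed. These 4 are 13.8% of the 29, where 9.64% of all clusters were higher without overlap. NDUFAB1, the mitochondrial acyl carrier protein, was at 9.21, 9.37 and 9.22 log2 units with siSLU7, against 8.31, 8.30 and 8.92 with control siRNA (difference 0.76 ± 0.27 SE, adjusted p = 0.268). NDUFA5 was at 6.61, 6.99 and 6.38, against 5.81, 5.60 and 6.26 with control siRNA (0.77 ± 0.29 SE, adjusted p = 0.298). In both genes control replicate 3 came closest to the siSLU7 arrays. NDUFS6 and NDUFA12 differed by 0.44 ± 0.24 and 0.42 ± 0.25 (SE). The remaining 25 supernumerary subunits overlapped, from -0.65 for NDUFV3 to 0.95 for NDUFB9. The widest swings with the array split were in NDUFA9, which was at 5.64 in siSLU7 replicate 1 and 4.16 in control replicate 2, while its other 4 arrays lay between 7.18 and 7.98. NDUFA9 was 2.61 log2 units lower in the pair than in the other 4 arrays, and its difference of 0.40 ± 0.93 (SE) was 1.48 within the pair but -0.13 in the remaining arrays.

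**Figure D3:**
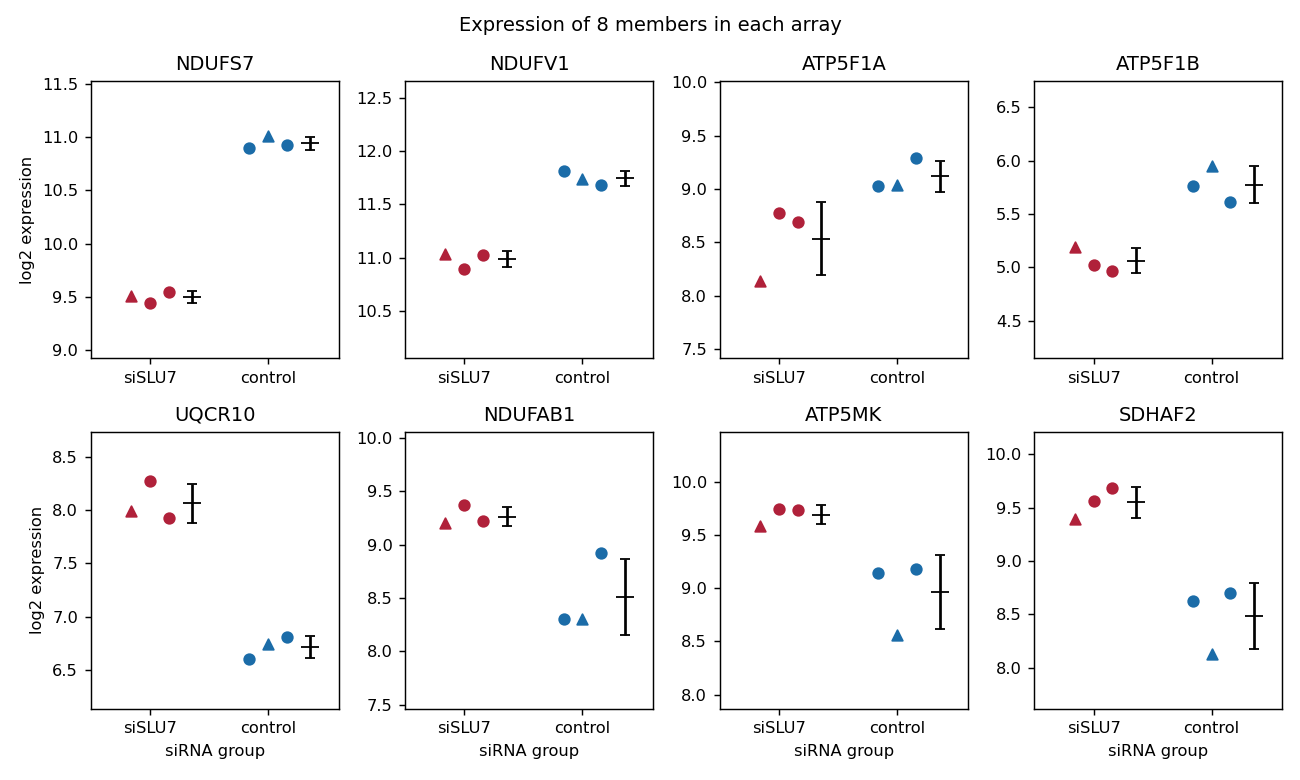
Log2 expression of 8 members in each array, siSLU7 left and control right, with the group mean ± SD (n = 3) beside the points, triangles for siSLU7 replicate 1 and control replicate 2, and vertical axes of equal span but different starts. The top row shows members with lower siSLU7 values (NDUFS7 at 9.44 to 9.55 with siSLU7 against 10.89 to 11.01 with control) and the bottom row members with higher ones (UQCR10 at 7.92 to 8.27 with siSLU7 against 6.602 to 6.81 with control).

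Complex II, succinate dehydrogenase, also acts in the citric acid cycle, and 3 of its subunits were measured. SDHB, the iron-sulfur subunit, was at 7.32, 6.22 and 7.03 log2 units with siSLU7, against 6.29, 6.84 and 6.57 with control siRNA. The membrane anchor SDHC was at 11.67, 11.67 and 11.89, against 11.88, 11.24 and 11.35 with control siRNA. The other anchor, SDHD, was at 5.96, 7.74 and 7.22, against 7.70, 5.60 and 7.09 with control siRNA. All of them overlapped, with differences of 0.29 ± 0.34, 0.25 ± 0.27 and 0.17 ± 0.60 (SE), and SDHD was lowest in the arrays that stand apart. The catalytic subunit SDHA was not analysed here because its cluster carries several gene symbols.

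Complex III held the largest positive difference of all members. UQCR10, a small subunit of the cytochrome bc1 complex (UCRC in the array annotation), was at 7.995, 8.27 and 7.92 log2 units with siSLU7, against 6.602, 6.74 and 6.81 with control siRNA. All siSLU7 arrays were high, and the gap to the control arrays was wider than the range within either group. UQCR10 averaged 8.06 ± 0.18 with siSLU7 and 6.72 ± 0.10 with control siRNA (SD, n = 3 each), a difference of 1.35 ± 0.24 (SE) or 2.54-fold (95% interval 1.74 to 3.72). The limma adjusted p was 0.0575, just outside the threshold. Both subsets of arrays gave similar values, 1.25 in the pair and 1.39 in the remaining 4. UQCRB, another small subunit, had siSLU7 values of 5.35, 6.03 and 5.63, against control values of 4.56, 5.29 and 4.76 (0.80 ± 0.30 SE, adjusted p = 0.305). UQCRB did not overlap, but its control level was below the lower quartile of the arrays, and its difference was 0.05 within the pair against 1.17 within the other 4.

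The core and iron-sulfur subunits of complex III had lower values with siSLU7 and did not pass. UQCRFS1, the Rieske iron-sulfur protein that takes electrons from ubiquinol, was at 7.90, 7.82 and 7.59 with siSLU7, against 8.01, 8.25 and 8.02 with control siRNA. These groups did not overlap, but the difference of -0.32 ± 0.24 (SE) was small and had an adjusted p of 0.665. The core proteins UQCRC1 and UQCRC2 differed by -0.53 ± 0.34 and -0.46 ± 0.33 (SE) and overlapped, with UQCRC1 dim in both groups (4.24 with siSLU7 and 4.77 with control siRNA). UQCRH, UQCR11 and UQCRQ lay between -0.05 and 0.30.

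In complex IV, cytochrome c oxidase, no subunit passed and 17 of 18 overlapped (5.56% without overlap, against 18.9% of all clusters). COX8A, the broadly expressed form of a small subunit, was the exception at 11.19, 11.35 and 11.36 log2 units with siSLU7, against 11.06, 10.76 and 11.16 with control siRNA. Its difference was only 0.31 ± 0.24 (SE), with an adjusted p of 0.698. Several subunits of this enzyme exist as alternative forms, and each pair was read separately because levels of different clusters cannot be compared. COX4I1, the general form of subunit 4, differed by -0.38 ± 0.29 (SE), and COX4I2, the form known for induction at low oxygen, by -0.53 ± 0.54. COX4I2 was at 6.53, 6.27 and 4.42 with siSLU7, against 6.71, 6.26 and 5.85 with control siRNA, so that siSLU7 replicate 3 alone was far below the others, and without it the difference was 0.13. COX6A1 and the heart and muscle form COX6A2 differed by 0.10 ± 0.27 and 0.48 ± 0.30 (SE). COX7A2 and the heart and muscle form COX7A1 differed by 0.07 ± 0.33 and -0.06 ± 0.26. COX7B and its paralog COX7B2, known from testis, differed by 0.49 ± 0.35 and 0.18 ± 0.27, and COX8C by 1.02 ± 0.51 at a dim 3.90 with siSLU7 and 2.88 with control siRNA. COX7A2L, which joins complexes III and IV in supercomplexes, differed by -0.19 ± 0.29 (SE), and COX6B1 by -0.08 ± 0.32. The subunits without alternative forms here, COX5A, COX5B, COX6C and COX7C, lay between 0.01 and 0.52 and overlapped.

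NDUFA4, first named for complex I and now counted to complex IV, had 2 clusters that disagreed in sign. The brighter cluster, taken by the rule, was at 11.11, 11.88 and 11.58 log2 units with siSLU7, against 11.69, 10.64 and 11.30 with control siRNA (0.31 ± 0.34 SE). The dimmer one was at 8.26, 9.26 and 9.74, against 10.07, 8.18 and 9.39 (-0.13 ± 0.53 SE). In both clusters the groups overlapped, and the lowest array was 1 of the pair that stands apart. None of the 20 clusters numbered nearest to the brighter one belongs to a gene on the chromosome of NDUFA4, while all 20 belong to genes on the chromosome of its pseudogene COXFA4P1, which RefSeq also lists under the name NDUFA4. The brighter value may therefore not be that of the gene. COXFA4L2 (NDUFA4L2), a paralog known as a hypoxia-induced gene, differed by 0.29 ± 0.37 (SE) and overlapped.

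Complex V held 7 of 17 members without overlap, 4 lower and 3 higher, and none passed. That is 41.2%, against 18.9% of all clusters (9.64% higher and 9.21% lower). Lower were subunits of the catalytic part. ATP5F1B, the beta subunit that carries the catalytic sites, was at 5.19, 5.02 and 4.97 log2 units with siSLU7, against 5.76, 5.95 and 5.62 with control siRNA (-0.72 ± 0.24 SE, 1.64-fold lower, adjusted p = 0.241). ATP5F1A, the alpha subunit, was at 8.14, 8.77 and 8.70, against 9.03, 9.04 and 9.29 with control siRNA (-0.59 ± 0.27 SE, adjusted p = 0.414). ATP5F1D, the delta subunit of the central stalk, was at 10.92, 10.89 and 10.87, against 11.16, 11.22 and 11.52 with control siRNA (-0.41 ± 0.24 SE, adjusted p = 0.552). In ATP5F1A the lowest array was siSLU7 replicate 1, and in the other genes the siSLU7 arrays lay close together. The remaining subunits of this part, ATP5F1C (gamma) and ATP5F1E (epsilon), differed by 0.01 ± 0.37 and 0.10 ± 0.30 (SE) and overlapped, and the median of these 5 subunits was -0.41. ATP5PO, the stalk protein that contacts the top of the catalytic head, was at 5.30, 5.17 and 4.57, against 5.75, 6.05 and 5.47 with control siRNA (-0.74 ± 0.30 SE, adjusted p = 0.335). With siSLU7 the means of ATP5F1B (5.06) and ATP5PO (5.01) were only just above the lower quartile of the arrays (4.86 to 4.98).

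Higher with siSLU7 were another stalk subunit and small membrane subunits of complex V. ATP5MK (USMG5 in the array annotation), a small membrane subunit, was at 9.59, 9.75 and 9.73 log2 units with siSLU7, against 9.15, 8.56 and 9.18 with control siRNA (0.73 ± 0.27 SE, adjusted p = 0.287). ATP5MJ (C14orf2), also a small membrane subunit, was at 9.80, 9.85 and 9.96, against 9.03, 9.29 and 9.49 with control siRNA (0.60 ± 0.25 SE, adjusted p = 0.351). ATP5PD, subunit d of the peripheral stalk, was at 7.30, 7.02 and 6.95, against 6.72, 6.26 and 6.32 with control siRNA (0.66 ± 0.26 SE, adjusted p = 0.322). The 7 membrane subunits had a median of 0.28, from -0.87 for ATP5MG, which overlapped, to 0.73 for ATP5MK. ATP5MC1 and ATP5MC3, separate genes for the same c subunit of the rotor, differed by -0.21 ± 0.27 and 0.08 ± 0.24 (SE). ATP5IF1, the protein that blocks ATP hydrolysis by the enzyme when the gradient fails, was at 7.82, 9.37 and 9.59, against 9.67, 7.02 and 9.07 with control siRNA. Its lowest arrays were those that stand apart, and its difference was 0.34 ± 0.71 (SE). The remaining members, ATP5ME, ATP5MGL, ATP5PB and ATP5PF, lay between -0.26 and 0.41 and overlapped.

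The assembly factors held 4 of the 14 members that were higher without overlap, and none passed. These are 36.4% of the 11 factors, where 9.64% of all clusters were higher without overlap. SDHAF2, which attaches the flavin to the catalytic subunit of complex II, was at 9.40, 9.56 and 9.69 log2 units with siSLU7, against 8.62, 8.13 and 8.70 with control siRNA (1.07 ± 0.26 SE, 2.09-fold, adjusted p = 0.122). NDUFAF4, a complex I assembly factor, was at 9.56, 9.73 and 10.00, against 8.97, 7.96 and 9.09 with control siRNA (1.09 ± 0.35 SE, 2.13-fold, adjusted p = 0.212). NDUFAF1, which acts on the membrane arm of complex I, was at 7.85, 8.32 and 8.64, against 7.63, 6.40 and 7.68 with control siRNA (1.03 ± 0.40 SE, adjusted p = 0.314). In each of these genes control replicate 2 was the lowest array, and the differences within the other 4 arrays were 0.96 for SDHAF2, 0.83 for NDUFAF4 and 0.82 for NDUFAF1. SDHAF4, a further complex II factor, differed by 1.28 ± 0.35 (SE, adjusted p = 0.152), but both of its means, 3.46 with siSLU7 and 2.18 with control siRNA, were below the lower quartile of the arrays. The other 7 overlapped, from -0.50 for NDUFAF5 to 0.46 for NDUFAF7. NDUFAF2 also had 2 clusters, at -0.13 ± 0.41 and -0.35 ± 0.85 (SE), and none of the 20 clusters numbered nearest to the brighter one belongs to a gene on its chromosome. The 2 members outside these groups overlapped as well, with differences of -0.09 ± 0.36 for DMAC2L and 0.16 ± 0.31 (SE) for EMC8.

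**Figure D4:**
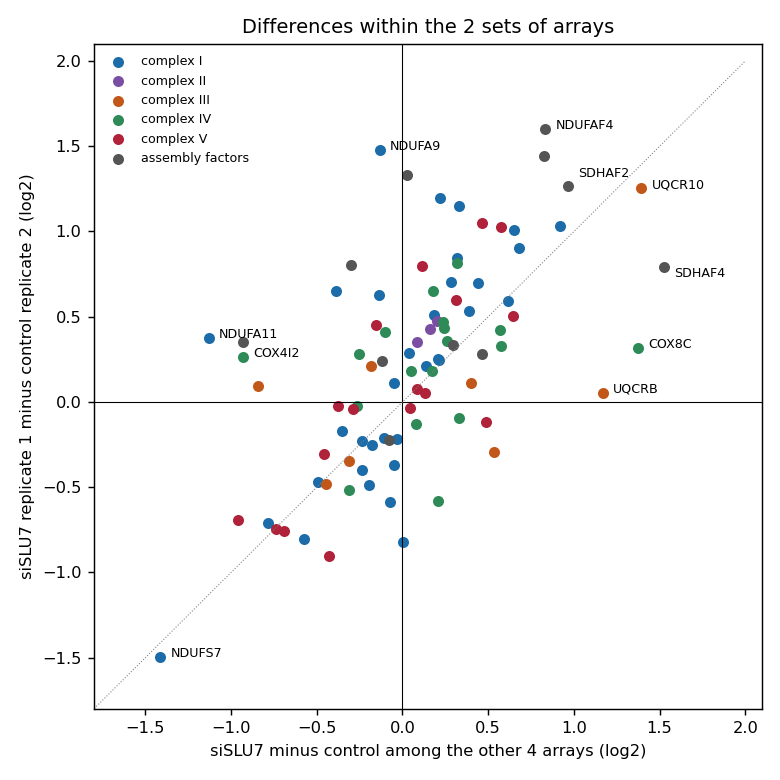
Log2 difference of each subunit and assembly factor within the pair of arrays that stands apart (vertical axis, siSLU7 replicate 1 minus control replicate 2) against that within the other 4 arrays (horizontal axis, siSLU7 minus control), coloured by complex, with the dotted line marking equal values. NDUFS7 (-1.50 and -1.41) and UQCR10 (1.25 and 1.39) lie near the line, whereas NDUFA9 (1.48 and -0.13) and NDUFA11 (0.38 and -1.13) do not.

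Across the members, 70 of 93 had the same sign within the pair and within the other 4 arrays, which is 75.3%, and 64.8% of all genes did. The pair gave the members a median difference of 0.25 and the remaining 4 arrays 0.08. For complex I these medians were 0.25 and -0.04, and for the assembly factors 0.79 and 0.29. NDUFA11, a membrane-arm subunit of complex I, was among the members that turned, with 0.38 within the pair and -1.13 within the other 4.

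Promoters are shown for the member that passed, NDUFS7, for its partner in complex I NDUFV1, and for UQCR10 and SDHAF2, which differed in the other direction. Each line gives the 250 bases before the RefSeq start on GRCh38.p14, 5′ to 3′ on the plus strand, at chr19:1383657-1383906, chr11:67606686-67606935, chr22:29767119-29767368 and chr11:61429874-61430123. Capitals mark matches to motifs searched on both strands, the letters GCGC and TGCGC with 1 base between them for nuclear respiratory factor 1 (NRF1), CCGGAAGT for ETS factors such as GABP, and AAGATGGC for YY1, which are known regulators of respiratory chain genes.
NDUFS7: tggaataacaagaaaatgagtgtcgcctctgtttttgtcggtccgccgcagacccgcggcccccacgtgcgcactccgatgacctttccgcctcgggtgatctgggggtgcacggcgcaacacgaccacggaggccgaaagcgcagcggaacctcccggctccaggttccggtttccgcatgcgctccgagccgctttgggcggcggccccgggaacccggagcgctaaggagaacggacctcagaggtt
NDUFV1: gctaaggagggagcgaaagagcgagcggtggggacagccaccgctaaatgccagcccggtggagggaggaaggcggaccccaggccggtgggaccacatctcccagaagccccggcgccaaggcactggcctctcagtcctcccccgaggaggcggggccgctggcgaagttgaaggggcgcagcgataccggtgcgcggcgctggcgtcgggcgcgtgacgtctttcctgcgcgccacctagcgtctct
UQCR10: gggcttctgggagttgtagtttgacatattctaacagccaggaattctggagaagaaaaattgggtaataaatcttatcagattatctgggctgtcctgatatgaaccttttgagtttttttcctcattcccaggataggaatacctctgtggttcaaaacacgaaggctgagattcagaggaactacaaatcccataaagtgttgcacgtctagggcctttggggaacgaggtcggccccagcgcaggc
SDHAF2: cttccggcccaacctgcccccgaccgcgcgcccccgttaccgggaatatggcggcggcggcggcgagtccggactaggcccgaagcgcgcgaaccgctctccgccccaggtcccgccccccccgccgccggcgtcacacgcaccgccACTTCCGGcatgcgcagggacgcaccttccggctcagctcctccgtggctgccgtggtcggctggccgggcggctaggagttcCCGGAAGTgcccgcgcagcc
SDHAF2 held 2 matches, both to the ETS letters, and the windows of the other genes held none. Of the 77 members matched in the RefSeq promoter table, 16 held the NRF1 letters (20.8%, against 7.65% of 15843 protein-coding promoters of the same length), 10 the ETS letters (13%, against 5.09%) and 1 the YY1 letters (1.3%, against 1.39%). The 25 members with any of these motifs had a median log2 difference of 0.26 and the 52 without one of 0.08, a difference that was not tested. ATP5MK, ATP5PD, ATP5MJ, SDHAF2 and SDHAF4 were among those with a motif, as were ATP5PO and UQCRFS1, which differed in the other direction.

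Regulators of respiratory chain genes were measured beside the members. Of 24 listed, none passed, and their median was 0.20. At an unadjusted p under 0.05, 4 were higher and 2 lower, where 6.55% and 6.54% of all clusters were. Without overlap, 5 were higher and 2 lower. Those 7 are 29.2% of the list, against 18.9% of all clusters. TFAM, which packages mitochondrial DNA and acts in its transcription, was at 9.92, 10.52 and 10.55 log2 units with siSLU7, against 8.51, 8.05 and 9.28 with control siRNA (1.72 ± 0.36 SE, 3.28-fold, adjusted p = 0.0801). SIRT1, a deacetylase that acts on the coactivator PGC-1alpha, was at 9.38, 9.75 and 9.72, against 8.50, 7.44 and 8.18 with control siRNA (1.58 ± 0.32 SE, adjusted p = 0.0748). EPAS1, a hypoxia-inducible factor subunit, was at 9.05, 9.52 and 9.94, against 11.13, 10.28 and 10.83 with control siRNA (-1.24 ± 0.33 SE, adjusted p = 0.148). For all 3 genes the groups were separate, and the sign was the same within the pair and within the other 4 arrays. TFAM and SIRT1 passed without the dimmest clusters (adjusted p = 0.0432 and 0.0379), with an intensity trend (0.0234 and 0.0222) and with array weights (0.0343 and 0.0223). EPAS1 passed with array weights alone (0.0496). In those settings 2.31%, 2.36% and 3.07% of the clusters tested passed, against 0.433% in the main fit. No cluster passed with the replicate block, without both arrays that stand apart or without any 1 array.

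Assembly factors outside the name rule were represented by 41 of 48 listed, of which none passed. At an unadjusted p under 0.05, 6 were higher and 1 lower, where 6.55% and 6.54% of all clusters were. Of the 41 factors, 30 were above 0 and 11 below, with a median of 0.20, and 8 were higher and 1 lower without overlap. Those 9 are 22.0% of the list, near the 18.9% of all clusters. COX10, which acts in making the heme of complex IV, was at 7.38, 7.51 and 7.11 log2 units with siSLU7, against 5.49, 6.02 and 6.21 with control siRNA (1.43 ± 0.28 SE, 2.70-fold, adjusted p = 0.0712). UQCC3, a complex III assembly factor, was at 9.21, 9.09 and 9.37, against 8.06, 7.81 and 8.07 with control siRNA (1.24 ± 0.24 SE, 2.37-fold, adjusted p = 0.0674). COX10 and UQCC3 passed in the same 3 settings as TFAM, with adjusted p from 0.0298 to 0.0349 and from 0.0199 to 0.0319. Neither passed with the replicate block, without both arrays that stand apart or without any 1 array. FMC1, which acts in ATP synthase assembly, was dim in both groups, at 3.83 with siSLU7 and 2.60 with control siRNA (1.23 ± 0.34 SE). Among 7 measured of 20 listed subunits and electron carriers outside the name rule, 1 passed, where 0.433% of all clusters did. This was ETFB of the electron transfer flavoprotein, which fell by 1.71 ± 0.26 (SE) on the log2 scale (adjusted p = 0.0483). The ETFB call was lost with the replicate block (adjusted p = 0.190), without both arrays that stand apart (0.115) and without any 1 array (0.0722 to 0.2025). CYCS, cytochrome c, was at 9.07, 9.18 and 9.22 with siSLU7, against 8.60, 8.84 and 8.93 with control siRNA (0.36 ± 0.24 SE, adjusted p = 0.605), without overlap, and the median of these 7 was -0.21.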

How the data were processed

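Total RNA from 6 PLC/PRF/5 samples was hybridised to exon arrays. Per the labels, the authors summarised core probe sets with aroma.affymetrix, and RMA is named in the submitters' processing notes. The deposited values run from 0.96 to 14.49 and were taken as log2 levels. Build and annotation were not given in the sources used here. One value per locus sums all its exons, so altered splicing of a gene cannot be separated from altered abundance.

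GEO's platform annotation gave 1 symbol to 16287 of 18708 clusters, several to 674 and none to 1747. RefSeq (GRCh38.p14) updated 2179 symbols. The name rule took 96 clusters of 93 genes, each gene read from its brightest cluster, and 4 matching clusters with several symbols were left out.

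Groups were compared with limma 3.58.1 (R 4.3.3, lmFit and eBayes, Benjamini-Hochberg over all clusters, threshold 0.05), checked on simulated arrays with independent noise. The differences set there were larger than that of any member, and the split of the arrays was not simulated. The check therefore does not bear on calls of the size seen here. The number of arrays limits precision (median standard error 0.312). Dim means a group mean below the lower quartile. No arrays were copies (correlations 0.926 to 0.974). Named were SLU7, called members, up to 4 members per direction without overlap in each complex and in the assembly factors, alternative forms, core subunits, ATP5IF1 and up to 3 genes without overlap of each pathway list. NDUFS3, NDUFS8, NDUFA9, NDUFA11, NDUFB3, NDUFS5, NDUFAF2 and genes given only as part of a range or a remainder were named after their values were seen. The members and lists were chosen with earlier results of these data known.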

Additional observations from a re-analysis of the deposited data

How the results depend on the processing

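NDUFS7 kept its direction in every alternative run, from -1.50 within the pair that stands apart to -1.41 without it. It was the only member called with quantile normalization, median centring or averaged clusters. Without the dimmest clusters (a mean below the lower quartile, which left 86 members), 121 clusters were called higher and 203 lower, and 1 member, UQCR10, higher (1.35). With an intensity trend and robust shrinkage these were 173 and 268, with 2 members higher (UQCR10 and SDHAF2) and 2 lower (NDUFV1 and NDUFS7). With array weights they were 221 and 354, with 2 members higher (UQCR10 at 1.39 and SDHAF4 at 1.43). NDUFS7 was called in these 3 settings, and SLU7 passed in them, at -1.51, -1.51 and -1.61. Deviations of same-numbered arrays correlated at -0.381, -0.314 and 0.141, and those of siSLU7 replicate 1 and control replicate 2 at 0.517. As the split of that pair enters these values, they cannot show whether same-numbered arrays were paired. With the replicate block 0 clusters and 0 members were called (1845 clusters and 10 members at an unadjusted p under 0.05), as without both arrays that stand apart (2922 and 15), and limma called 0 without any 1 array (1833 to 2573, and 7 to 20). NDUFS7 then had adjusted p of 0.208 with the block and 0.112 in the 4 arrays. The cause was not tested, but these fits have fewer residual degrees of freedom. Without any 1 array the median difference ran from -0.053 to 0.30 in complex III, from -0.27 to 0.12 in complex V and from 0.19 to 0.65 in the assembly factors. Within the pair the last was 0.79.

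Of all 93 members, 58 kept 1 sign without any 1 array. Among those that did not, the difference ran from -0.74 to 1.18 in NDUFA9, from -0.20 to 1.19 in NDUFB3 and from -0.14 to 0.99 in NDUFS5. Without any 1 array, the difference ran from -0.93 to 0.13 in COX4I2, from -0.068 to 0.23 in COX6A1, from -0.38 to 0.12 in COX6B1, from -0.15 to 0.11 in COX7A1, from -0.23 to 0.32 in COX7A2, from -0.38 to 0.013 in COX7A2L and from -0.079 to 0.51 in COXFA4L2. It ran from -0.0073 to 0.17 in ATP5MC3, from -0.56 to 0.31 in NDUFV2, from -0.42 to 0.68 in SDHD, from -0.27 to 0.32 in ATP5F1C and from -0.44 to 0.90 in ATP5IF1. Within the pair it was 0.27 in COX4I2, 0.28 in COX6B1, 0.091 in UQCRC1 and -0.038 in ATP5F1C. With array weights it was 0.11 in COX7A1 and -0.0074 in COX7A2, and without both arrays that stand apart 0.21 and -0.10. The causes were not tested.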

Other observations

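The citric acid cycle, which feeds electrons to complexes I and II, was measured with 15 of 18 listed genes, counting the pyruvate dehydrogenase complex. None passed the limma test over all clusters. At an unadjusted p under 0.05, 3 were lower and none higher, where 6.54% of all clusters were lower. Without overlap, 4 were lower and none higher, where 9.21% of all clusters were lower. The median log2 difference was -0.20, with 11 below 0 (-0.17 within the pair of arrays that stands apart and -0.21 within the other 4). DLAT, the acetyltransferase of the pyruvate dehydrogenase complex, was at 9.53, 9.63 and 9.45 log2 units with siSLU7, against 10.63, 10.77 and 11.19 with control siRNA (-1.32 ± 0.26 SE, 2.50-fold lower, adjusted p = 0.0674). IDH2, the mitochondrial isocitrate dehydrogenase that uses NADP, was at 8.31, 7.92 and 8.13, against 9.03, 9.61 and 9.58 with control siRNA (-1.29 ± 0.27 SE, adjusted p = 0.0803). In both genes every siSLU7 array was low. DLAT and IDH2 passed without the dimmest clusters (adjusted p = 0.0324 and 0.0420), with an intensity trend (0.0136 and 0.0271) and with array weights (0.0224 and 0.0253). In those settings 2.31%, 2.36% and 3.07% of the clusters tested passed, against 0.433% in the main fit. Neither gene passed with the replicate block, without both arrays that stand apart or without any 1 array. OGDH, of the oxoglutarate dehydrogenase complex, differed by -0.70 ± 0.29 (SE), of which -0.04 lay within the pair and -1.03 within the other 4.

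Among 12 of 13 listed genes of coenzyme Q synthesis, the carrier between complexes I or II and complex III, none passed. The median was 0.01, and 6 lay on each side of 0. At an unadjusted p under 0.05, 2 were lower and none higher, where 6.54% of all clusters were lower. COQ6, a hydroxylase of the ring, was at 4.59, 4.10 and 3.82 log2 units with siSLU7, against 5.99, 4.73 and 5.67 with control siRNA (-1.29 ± 0.38 SE, adjusted p = 0.177). It did not overlap, but it was dim with siSLU7. Its difference was -0.14 within the pair that stands apart, against -1.87 within the other 4. COQ6 passed with array weights alone (adjusted p = 0.0285), where 3.07% of all clusters did. That setting gave the arrays of the pair the lowest weights (0.511 for siSLU7 replicate 1 and 0.399 for control replicate 2).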
